A study of Citrus sinensis and Citrus junos and Citrus trifoliata with 12 samples.

Results

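The 100 genes described here kept the steadiest level across 3 organs (root, stem and leaf) of orange trees grafted on 2 rootstocks. They were chosen by a rule on the deposited FPKM, which is the fragment count of a gene per kilobase of transcript, scaled to the size of the library. Of 26559 gene IDs listed in at least 1 library, 13011 had an FPKM of at least 1 in all 12. Each library was divided by its median over these 13011 genes, and the result is called scaled FPKM here. Of the 6185 genes that also had a mean deposited FPKM of at least 20, called eligible genes here, the 100 with the lowest coefficient of variation (CV, the SD divided by the mean) of scaled FPKM over 12 libraries were kept. The levels below were used by that rule, so they are given as a description, and a comparison of the 100 genes with the others on them is no test.

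RNA came from roots, stems and leaves of trees that carried the navel orange 'Lane Late' (Citrus sinensis) as scion, grafted on Ziyang xiangcheng (Citrus junos, Cj) or on Poncirus trifoliata (Pt). Each of the 6 groups had 2 libraries: Cj roots, Pt roots, and stem and leaf of the scion on Cj and on Pt. All libraries carried the stage label 140 DAF. The trees stood together in a single orchard from 2009, and sequencing followed in 2015. Roots are rootstock tissue and stems and leaves are scion tissue, so organ and species differ together between root and scion. The series title speaks of saline-alkali stress, but no label marks a library as stressed or unstressed. The labels do not say whether the libraries of a group came from separate trees, so their spread may be technical.

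Genes of this kind are often called housekeeping or reference genes. In plants the usual candidates serve the translation, protein turnover, cytoskeleton and membrane traffic that every living cell runs, and they are used as the yardstick against which other transcripts are measured in quantitative PCR. A level measured by sequencing is a share of a library, so a gene can only be steady relative to something else: the total, the median gene or another reference. In a bulk organ, fewer cells that express a gene and less of its RNA per cell cannot be told apart. The files do not pair the IDs with names, and 0 of the 26559 IDs matched the RefSeq table of sweet orange, so the 100 genes are given by ID, with no function and no sequence. For the same reason the organ labels could not be checked against marker genes.

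The 12 libraries held between 9356633 and 11383332 estimated counts and listed between 20953 and 23152 genes. The 100 genes were well covered: their mean count over the libraries ran from 292 to 3427 with a median of 778, and the lowest count of any of them in any library was 165. Together they took at least 0.686% of the counts of a library and at most 1%. The CVs attributed to counting below cover counting error only.

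The CV of the 100 genes ran from 4.31% to 10.8% with a median of 9.23%, while the median over all 6185 eligible genes was 47.2%. Such steadiness was rare among expressed genes. Of the eligible genes 61 had a CV under 10%, 353 (5.71%) a CV under 15%, 756 (12.2%) a CV under 20%, and 3319 (53.7%) a CV under 50%. The highest scaled value of a member was 1.15 to 1.54 times its lowest, with a median of 1.35, and 96 of the 100 members stayed under 1.5 times. Among the eligible genes 195 stayed under 1.5 times and 5199 spanned at least 2 times, with a median of 3.87 times. The edge of the set is not a gap. The last members, Cs9g05380 and Cs7g27500, had CVs of 10.80% and 10.81%, and the first genes outside it, Cs5g06960 and Cs2g13750, had 10.85% and 10.87%.

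**Figure D1:**
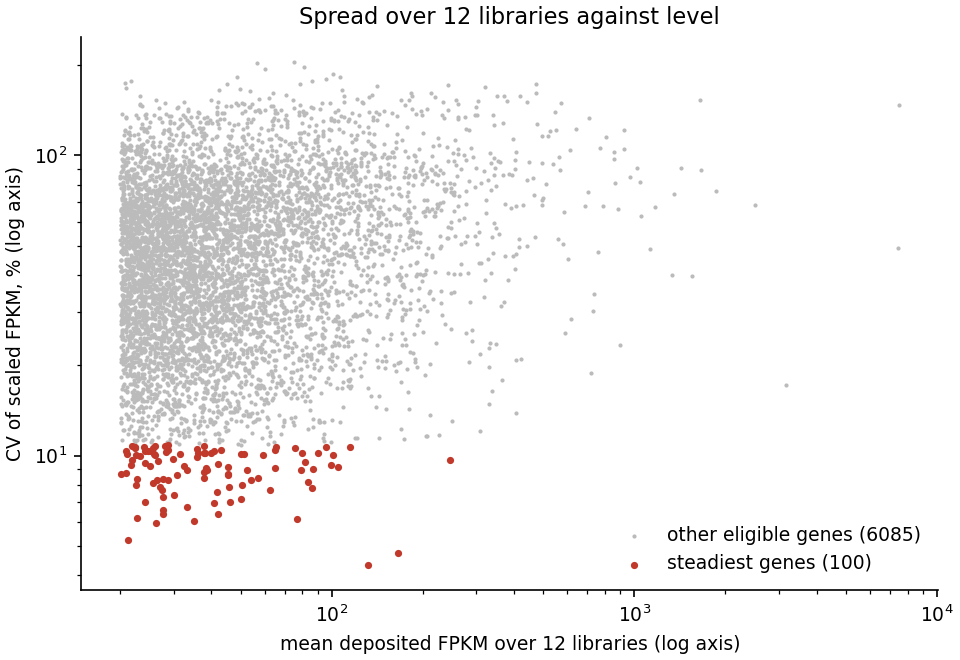
CV of scaled FPKM in % over 12 libraries (vertical, log axis) against mean deposited FPKM (horizontal, log axis) for 6185 eligible genes, 1 point a gene, with the 100 steadiest in red. The red points end at a CV of 10.8%, most lie below a mean FPKM of 100, and the lowest pair stands at 4.31% and 4.75%.

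Cs6g16290 was the steadiest gene of all. Its scaled FPKM in roots was 8.37 and 7.96 on Cj and 8.39 and 7.95 on Pt. In stem it was 7.67 and 7.54 on Cj and 7.95 and 7.94 on Pt, and in leaf 7.81 and 7.63 on Cj and 8.15 and 8.70 on Pt. The leaf libraries overlapped those of root and of stem. All 4 root libraries lay above all 4 stem libraries, but only just, with the lowest root at 7.949 and the highest stem at 7.948. The highest library, a Pt leaf, stood at 1.15 times the lowest, a Cj stem. In deposited FPKM the same gene looked different: it was 104 to 113 in the 4 root libraries, 144 to 154 in the 4 stem libraries and 128 to 153 in the 4 leaf libraries, so that every root library lay below every scion library. The difference between both views is the divisor of each library, with values of 12.9 to 14.2 FPKM for roots, 18.8 to 19.3 for stems and 16.8 to 17.5 for leaves.

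Cs4g12300, the second in rank, had a CV of 4.75% and a mean deposited FPKM of 165. Its scaled FPKM was 10.3 and 9.33 in Cj roots, 10.1 and 10.3 in Pt roots, 9.70 and 9.20 in Cj stem, 9.74 and 10.1 in Pt stem, 10.7 and 10.5 in Cj leaf and 9.71 and 10.5 in Pt leaf. Of its variation on the log2 scale 33.7% lay between organs, 23.6% between rootstocks within an organ and 42.8% between replicates.

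Cs1g21490 came next with a CV of 5.21% at a mean deposited FPKM of 21.3, close to the minimum the rule set. Its scaled FPKM ran from 1.21 in a Cj root and a Pt stem library to 1.39 in a Cj leaf library, and its organ means were 1.30 ± 0.0809 in root, 1.29 ± 0.0649 in stem and 1.28 ± 0.0743 in leaf (SD, n = 4 each). Counting error alone would give it a CV of 4.15%. Replicate 2 stood above replicate 1 in all 6 groups, by the least in Pt leaf (1.25 against 1.23), and 82.0% of its variation lay between replicates. Cs5g12570 (CV 5.97%) and Cs7g29350 (CV 6.05%) followed. Cs5g12570 had organ means of 1.60 ± 0.0802 in root, 1.53 ± 0.0896 in stem and 1.62 ± 0.113 in leaf, and Cs7g29350 of 2.12 ± 0.212, 2.10 ± 0.0298 and 2.12 ± 0.117 in the same order (SD, n = 4 each, scaled FPKM). In both, the ranges of the 3 organs overlapped. The spread of Cs7g29350 sat in the roots, where Cj stood at 2.19 and 2.33 and Pt at 2.15 and 1.83.

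**Figure D2:**
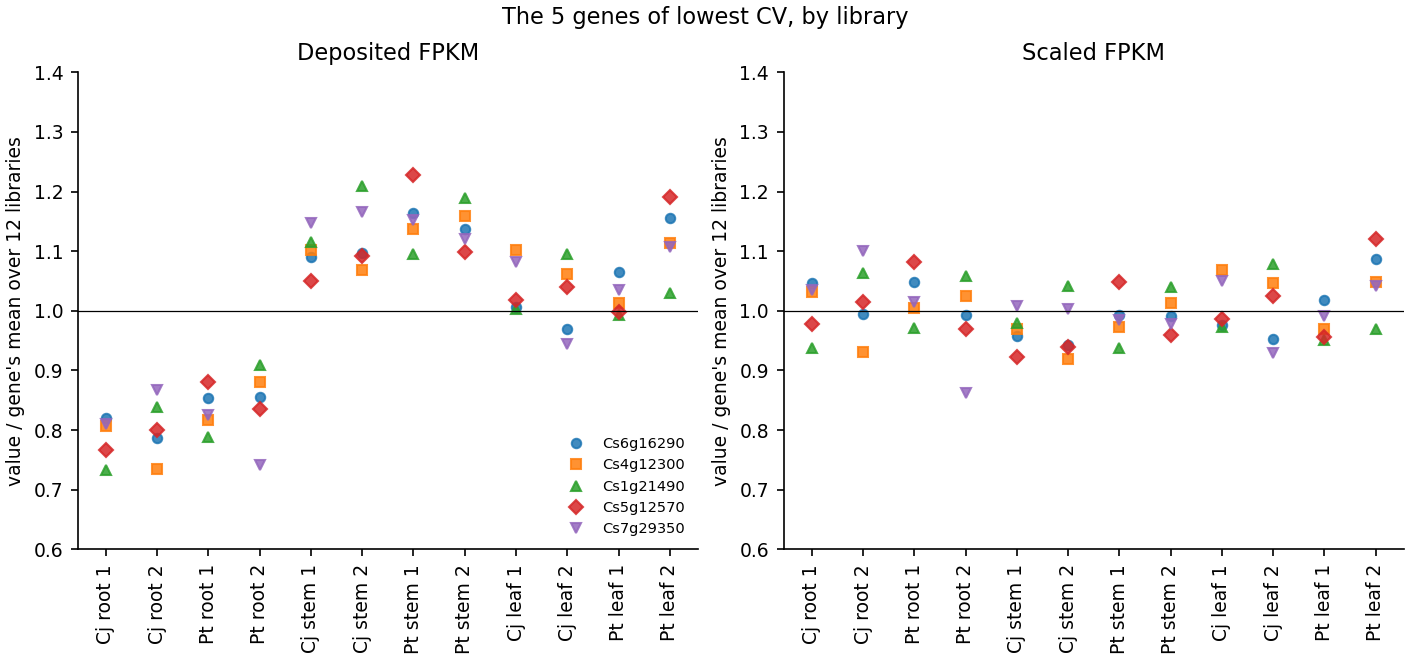
Value of the 5 genes of lowest CV in each of 12 libraries, divided by the gene's mean over the 12, as deposited FPKM (left) and as scaled FPKM (right), 1 marker a gene. Without scaling the 4 root libraries lie below all scion libraries for these genes. With scaling the organs overlap, except that the roots of Cs6g16290 lie just above its stems (lowest root 7.949, highest stem 7.948). The lowest scaled point is Cs7g29350 in Pt root replicate 2, at 1.83 against 2.19 and 2.33 in Cj roots.

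The steadiness of the 100 genes was measured against the median widely expressed gene, and in the deposited FPKM as they stand it was less. In deposited FPKM, 95 of the 100 genes were higher in all 4 stem than in all 4 root libraries, where 45% of eligible genes were. The stem mean was 1.17 to 1.67 times the root mean, with a median of 1.39, against a median of 1.24 over eligible genes. In leaf against root, 74 of the 100 did not overlap and were higher in leaf (40.9% of eligible genes), with a median ratio of 1.26. Stem lay wholly above leaf for 26 (31.1% of eligible genes). In scaled FPKM the same 3 median ratios were 0.975, 0.988 and 0.972. The members' median deposited FPKM was 26.5 to 29.3 in the root libraries, against 36.7 to 41.4 in the scion libraries.

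After scaling, the level of the members still showed small shared shifts. Relative to each gene's mean, the median member stood at 0.992 to 1.03 in the 4 root libraries, 0.967 to 0.999 in stem and 0.991 to 1.02 in leaf. The root held the highest organ mean for 44 of the 100 genes, the leaf for 38 and the stem for 18, while the stem held the lowest mean for 46. Among all eligible genes the root was highest for 50.6%, the leaf for 30.4% and the stem for 19.0%. The 3 organ means of a gene lay within 1.1-fold of each other for 35 members and 90 eligible genes in all, and 6 members had organ means more than 1.2-fold apart. Pt stem replicate 1 was the lowest library for 19 members and the highest for 1, and Pt leaf replicate 2 was the highest for 14. No single library held the extremes of most members.

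**Figure D3:**
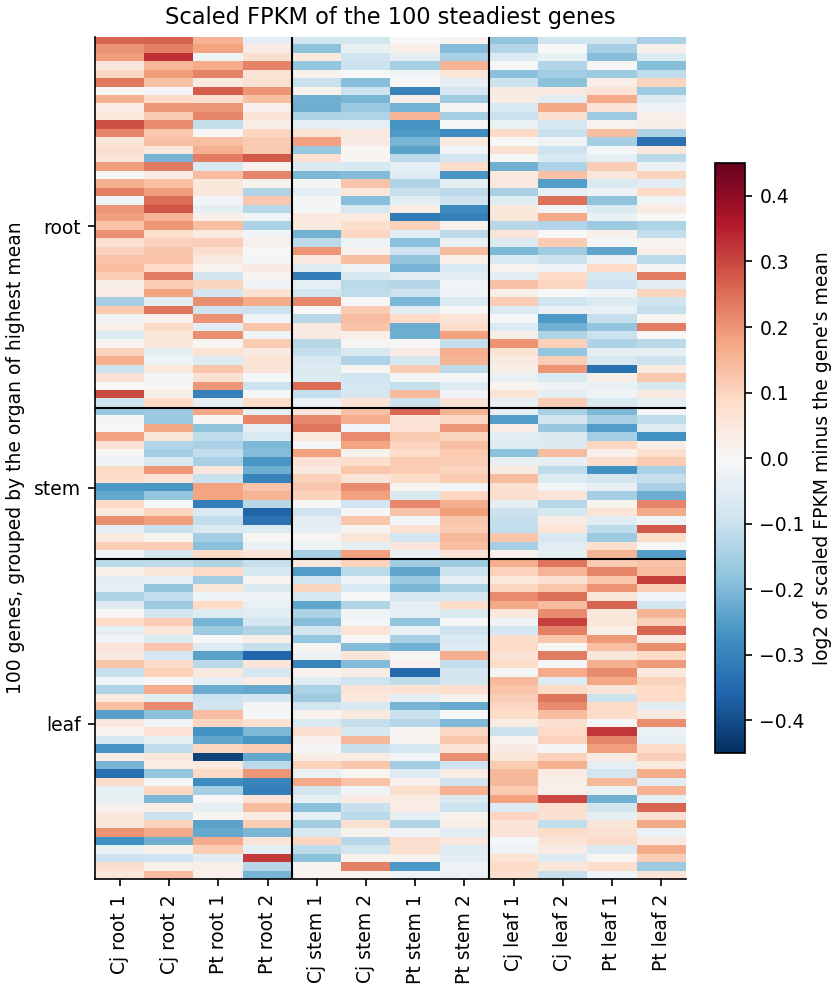
Log2 of scaled FPKM minus the gene's mean over 12 libraries for the 100 steadiest genes (rows, grouped by the organ of highest mean) in 12 libraries (columns, by organ, rootstock and replicate), blue low and red high. Of the rows, 44 are highest in root, 18 in stem and 38 in leaf, and within each block the colours also change between rootstocks and between replicates of one group.

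A few members held a residual organ pattern in which 4 libraries of one organ stood apart from the other 8. Leaf lay wholly above the other organs for 5 members (15.5% of eligible genes) and wholly below for 1 (13%). Stem lay wholly below for 4 members (6.53%) and wholly above for 0 (7.03%). Root lay wholly above for 2 (35.3%) and wholly below for 0 (27.6%). The rule that chose the members limits these counts, so nothing is read from the difference to the eligible genes.

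The organ extremes within the set show how small these patterns were. Cs9g04330 had the highest leaf mean relative to its 3 organs: its scaled FPKM was 2.46 to 2.69 in leaf, 2.07 to 2.12 in root and 2.04 to 2.44 in stem. Leaf and stem did not overlap, and its root level was the tightest of the named genes at 2.10 ± 0.0193 (SD, n = 4) over libraries of 2 species. Cs2g30360 had the lowest leaf mean, at 2.29 ± 0.0491 against 2.81 ± 0.147 in root and 2.57 ± 0.0543 in stem (SD, n = 4 each), and 88.6% of its variation lay between organs. Its 4 leaf libraries stood below all others.

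Cs7g27500 had the highest root mean, at 1.97 ± 0.192 against 1.71 ± 0.0620 in stem and 1.61 ± 0.0510 in leaf (SD, n = 4 each, scaled FPKM). Its root libraries were both 2.11 on Cj, and 1.95 and 1.70 on Pt, so the lowest Pt root fell among the stem libraries. Cs4g06530 had the lowest root mean, at 2.04 ± 0.247 against 2.35 ± 0.134 in stem and 2.44 ± 0.147 in leaf (SD, n = 4 each). The low values were those of Pt roots, at 1.92 and 1.77, while Cj roots stood at 2.33 and 2.14.

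In stem, Cs6g21800 was highest, at 1.87 ± 0.113 against 1.64 ± 0.188 in root and 1.58 ± 0.0991 in leaf, and orange1.1t04032 was lowest, at 1.94 ± 0.118 against 2.35 ± 0.164 and 2.32 ± 0.0688 (SD, n = 4 each, scaled FPKM). Stem and leaf did not overlap for either gene. For orange1.1t04032 all 4 stem libraries also lay below all 4 root libraries, and for Cs6g21800 stem and root overlapped.

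The sum of squares that remained was spread over organ, rootstock and replicate. The shares below are not divided by degrees of freedom, of which organs have the fewest and replicates the most. Similar shares therefore do not mean that organ or rootstock differences were as small as those between replicates. On the log2 scale, a median of 35.0% of a member's sum of squares lay between organs, 29.3% between rootstocks within an organ and 25.1% between replicates of a group. Over all eligible genes the medians were 86.7%, 9.27% and 2.29%. The organ was the largest of the 3 parts for 44 members, the rootstock for 30 and the replicate for 26. With FPKM scaled to an equal sum in every library (TPM) in place of the median, the organ part rose to a median of 63.8%.

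The rootstock part was the largest for 30 members, and in some of them it dominated. Cs9g05380, just inside the set, had 78.3% of its variation between rootstocks: its scaled FPKM was 1.12 and 1.15 in Cj roots and 1.48 and 1.45 in Pt roots, and in leaf the order turned, with 1.38 and 1.36 on Cj and 1.18 and 1.12 on Pt. Its organ means of 1.30, 1.38 and 1.26 in root, stem and leaf hide this crossing. The shortest member, Cs9g01490 (411 bases), had the largest range, 1.54 times from lowest to highest. Of its variation 44.1% lay between rootstocks within an organ and 40.6% between organs. Its extremes were a Pt root library at 3.39 and a Pt stem library at 5.23, while all 6 libraries from trees on Cj lay between 4.60 and 4.86.

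Replicates of a group differed by little for the members. The median fold between the replicates of a group was 1.05 in Cj roots, 1.06 in Cj stem and Cj leaf, 1.07 in Pt roots, Pt stem and Pt leaf, against 1.06 in Cj roots and at most 1.11 in the other groups over eligible genes. Counting error alone would give the members a CV of 1.74% to 5.94%, with a median of 3.70%. The observed CV was 1.26 to 5.55 times that, with a median of 2.48, against a median of 9.80 for eligible genes. For 28 of the 100 genes it was less than 2 times, and for 6 less than 1.5 times.

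Calls between groups were taken from edgeR's quasi-likelihood test on all 21261 genes that passed its filter on low counts, with an adjusted p under 0.05. All 100 members were tested. Between stem and root, averaged over rootstocks, 23 members passed, beside 84.6% of all genes tested. They were 6 higher in stem (47.3% of all genes) and 17 lower (37.3%). The members' log2 fold changes ran from -0.29 to 0.32. Between leaf and root 20 passed, beside 85.4%, namely 7 higher in leaf (45.6%) and 13 lower (39.8%), with log2 fold changes of -0.35 to 0.34. Between leaf and stem 17 passed, beside 54.7%, namely 9 higher in leaf (26.9%) and 8 lower (27.8%), with log2 fold changes of -0.30 to 0.30. The rule used these libraries, so nothing is read from the contrast with the other genes.

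The direction of these calls followed the scaling. With the divisors of the rule as scaling, the members called were 8 higher and 13 lower in stem than root, 13 higher and 9 lower in leaf than root, and 12 higher and 6 lower in leaf than stem. Calls among all genes were 10148 and 7826, 9848 and 8315, and 5863 and 5773 in the same order. With edgeR's relative log expression (RLE) scaling the members called were 3 and 33, 2 and 17, and 17 and 3. Calls among all genes were then 9715 and 8247, 9547 and 8606, and 6191 and 5507. With DESeq2 the members called were 2 and 27, 2 and 13, and 14 and 2. Calls among all genes were then 9447 and 7966, 9359 and 8430, and 5424 and 4872. On log2 of deposited FPKM plus 1, with no further scaling, limma called all 100 higher in stem than root and 89 higher in leaf than root. Among all genes it called 12364 higher and 5880 lower in stem than root. In leaf against root it called 11154 higher and 7050 lower. The split of the members' calls into higher and lower thus moved with the scaling. For Cs2g30360 the order of leaf and stem held under both views. It lay lower in all 4 leaf than in all 4 stem libraries in scaled FPKM and also in deposited FPKM, at 38.0 to 41.3 against 48.4 to 49.98. Its order of leaf and root did not hold. All 4 leaf libraries lay below all 4 root libraries in scaled FPKM, but in deposited FPKM the roots, at 35.1 to 39.9, overlapped the leaves.

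Between rootstocks, 12 members passed in roots, beside 51.7% of all genes tested. They were 5 higher in Cj (27.4%) and 7 lower (24.3%), and the log2 fold changes of the 100 genes ran from -0.43 to 0.40. In the scion 0 members passed in stem (4.43% of all genes tested) and 0 in leaf (8.31%) by edgeR, with 4 members in each at an unadjusted p under 0.05. DESeq2 called 1 member in stem and 0 in leaf, and limma called 0 in both. Among all genes DESeq2 called 1078 in stem and 1746 in leaf, and limma on log2(FPKM + 1) called 593 and 1565. The median standard error of a member's log2 fold change was 0.12 in roots and 0.11 in stem and leaf, against median absolute changes of 0.12, 0.08 and 0.07. In stem and leaf the median absolute change was smaller than the median standard error, and the smallest change called in roots was 0.28. Across the 6 comparisons 46 members passed in none, 37 in 1, 16 in 2 and 1 in 3. The rule used these libraries and no such count is given for all genes, so nothing is read from it.

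Taken by overlap of the libraries alone, both Cj root libraries lay above both Pt root libraries for 45 members (43.7% of eligible genes) and below for 22 (40.9%). In stem the numbers were 23 above (23%) and 21 below (28.2%), and in leaf 21 above (25.4%) and 14 below (29.9%). Libraries of 3 species were counted on a single set of IDs, and a gene whose reads align less well in one species reads as lower there. What part this has in the root values was not tested.

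The rule used all 12 libraries, so the same choice was repeated on some of them and its genes were followed in the others. Chosen on the 6 libraries of replicate 1, 100 genes had a median CV of 8.75% there and of 10.4% in the 6 libraries of replicate 2, where all 6223 eligible genes of that choice had a median of 49.7%. Of these 100 genes 94 were in the lowest 10% of eligible genes in replicate 2. Chosen on replicate 2, the median CV was 11.1% in replicate 1, and 96 genes were in the lowest 10%. These choices shared 68 and 65 genes with the 100 described above. The other replicate holds the same organs and rootstocks, so this repeats the measurement and not the conditions.

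From one rootstock to the other the CV rose further. Chosen on the 6 libraries of trees on Cj, genes with a median CV of 6.05% there had 16.1% in trees on Pt, where eligible genes had 45.6%. Chosen on trees on Pt, a median CV of 6.58% became 16.5% on Cj, where eligible genes had 46.7%. Of each 100, 42 and 43 were in the lowest 10% of the left-out trees, and single genes reached a CV of 57.2% and 69.6% there. These sets shared 30 and 32 genes with the 100 described.

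Genes steady within roots or within the scion were mostly other genes. The 100 steadiest over the 4 root libraries had a median CV of 2.39% in roots and of 13.3% over the 8 scion libraries, where all eligible genes had 17.8%. The highest reached 149% in the scion, and 17 of the 100 were in the lowest 10%. The 100 steadiest over stem and leaf had a median CV of 4.83% there and of 14.2% in roots, where eligible genes had 24.1%, and 18 were in the lowest 10%. Only 9 and 13 of these genes were among the 100 steadiest over all organs. Counting error alone would give the 6185 eligible genes a median CV of 4.32% over 12 libraries. The genes chosen here had 2.39% in roots and 4.83% in the scion. What part counting has in which genes were chosen was not tested.

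**Figure D4:**
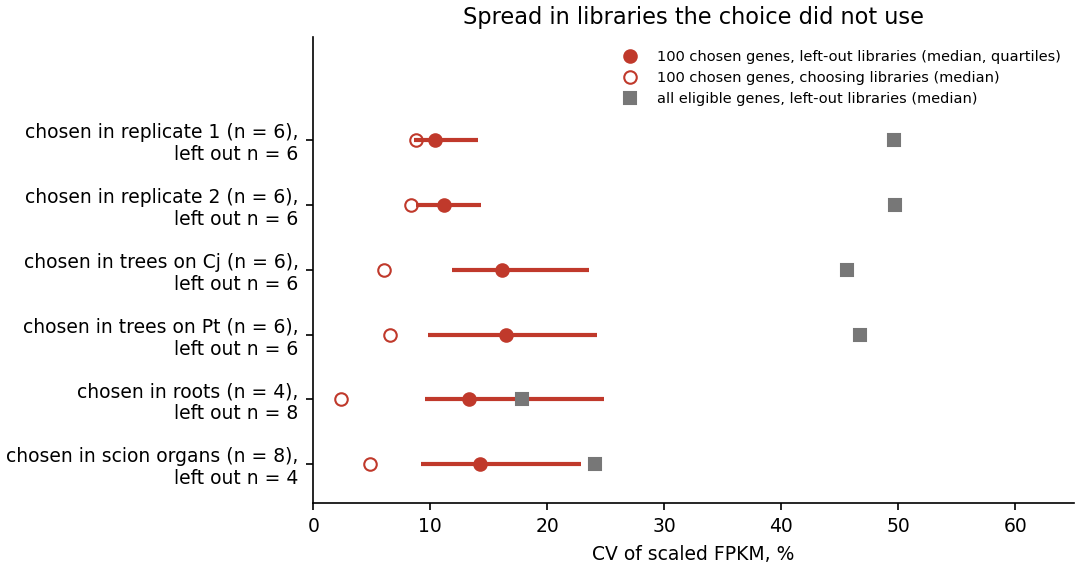
CV of scaled FPKM in % for 100 genes chosen on part of the libraries: open circles are medians in the choosing libraries, filled circles medians in the left-out libraries with bars over the quartiles, grey squares medians of all eligible genes in the left-out libraries. The filled circles stand at 10.4% and 11.1% for the other replicate, 16.1% and 16.5% for trees on the other rootstock, and at 13.3% and 14.2% between roots and scion, where the grey squares lie at 17.8% and 24.1%.

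Which genes make up the 100 depended on the scaling and on the minimums. With deposited FPKM as they stand, 1 of the 100 genes, orange1.1t02417, was among the 100 of lowest CV. Its CV was 9.75% unscaled and 10.4% scaled, and its mean deposited FPKM was 22.1 in root, 26.3 in stem and 24.2 in leaf. With TPM 31 of the 100 were kept, with the upper quartile as divisor 36, and with CPM (counts scaled to library size) under edgeR's trimmed mean of M values (TMM) 86. An FPKM minimum of 5 in place of 1 in every library, which also changes the genes behind the divisor, kept 30. Most genes that fell out stayed among the steadier ones. Under TPM 99 of the 100 were still in the lowest 10% of eligible genes by CV. With the other scalings except none 100 of the 100 were, and with no scaling 67 were. With the FPKM minimum of 5 the number was 94, and ranked by median absolute deviation in place of the CV it was also 94. By median, upper quartile, TPM and TMM alike, 24 of the 100 were among the lowest 100. Cs6g16290 is the first of these 24 in rank, and orange1.1t02417 the last. The genes in places 2 to 5, Cs4g12300, Cs1g21490, Cs5g12570 and Cs7g29350, are not among the 24. Under TPM their CVs were 10.7%, 11.3%, 10.9% and 10.7%, above the limit of that choice. Leaving out 1 library at a time kept 76 to 94 of the 100, and 62 were kept each time.

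**Figure D5:**
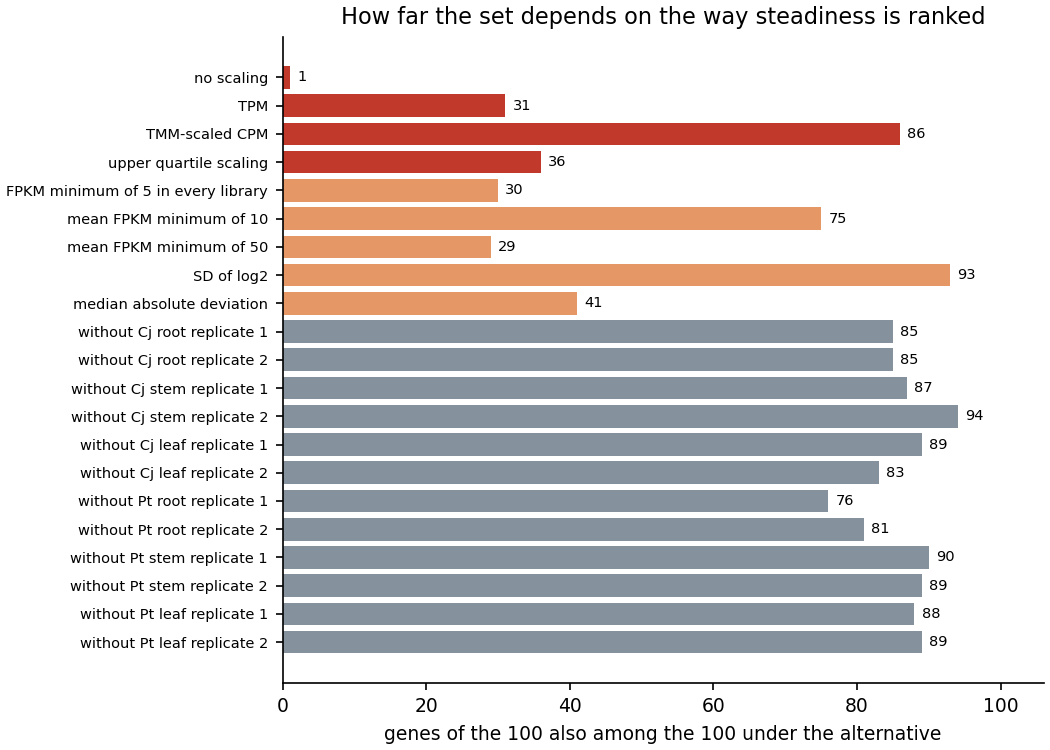
Number of the 100 genes that are also among the 100 steadiest under each alternative (bars from 0): other scalings in red, other minimums or measures of spread in orange, and 1 library left out in grey. The bars reach 1 without scaling, 31 with TPM, 36 with the upper quartile and 86 with TMM, and lie between 76 and 94 when 1 library is left out.

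The members spanned a wide range of levels. The most abundant, Cs6g18830, had a mean deposited FPKM of 247 and a CV of 9.68%, with scaled FPKM of 14.9 to 16.2 in root, 14.0 to 17.1 in stem and 12.6 to 15.2 in leaf. Its leaf values were the lowest, and 1 leaf library reached into the range of stem and root. The median member had 35.8 FPKM, near the 39.2 of eligible genes. Of the genes with a mean FPKM of 20 to 30, 42 of 2002 (2.10%) were members, of those with 100 to 200, 5 of 595 (0.840%), and of those with at least 200, 1 of 274 (0.365%). The median CV of eligible genes rose over the same steps, from 42.2% to 58.7% and 70.9%. The median CV from counting fell over these steps, from 5.36% to 2.81% and 2.23%.

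Gene length and transcript number were not used by the rule, and FPKM is a value per length. The members had a median length of 2008 bases, against 1720 for eligible genes, and ran from 411 bases in Cs9g01490 to 4818 in Cs7g27600, whose CV was 10.8%. Of the eligible genes with at least 3000 bases 16 of 686 (2.33%) were members, of those with 1000 to 2000 bases 43 of 2942 (1.46%), and of those under 500 bases 1 of 197 (0.508%). Longer genes gather more counts at a given FPKM: the median CV from counting was 3.08% for the longest class and 10.2% for the shortest. Of the 100 members 30 had a single listed transcript, against 44.3% of eligible genes, and the share of members rose from 1.09% of genes with 1 transcript to 2.48% of those with at least 4. Genes with more transcripts had more counts as well, with a median counting CV of 3.72% against 4.85%. What part counting has in these shares was not tested.

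Most members had counts that the authors' estimation did not divide. For 85 of the 100 the expected count was whole within 0.005 in every library, against 78.7% of eligible genes. The counts of the other 15 were not all whole, which can come from reads shared out between features, and these are less certain as single genes. By ID the members were scattered. IDs that start with orange1.1t made up 14 of them (13.0% of eligible genes), and each of the starts Cs1g to Cs9g held between 6 and 13. The share of eligible genes that were members ran from 1.17% for Cs5g to 2.46% for Cs8g. Members stood on consecutive listed IDs in 2 cases, Cs2g30350 with Cs2g30360 and Cs7g01570 with Cs7g01580. The 55 eligible genes on the ID next to a member that were not members themselves had a median CV of 35.6%, against 47.2% over all eligible genes.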

How the data were processed

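Messenger RNA was captured with oligo(dT), fragmented, copied with random primers and amplified, per the labels' protocols. Per the file headers, the authors deposited 1 table per library with gene ID, transcripts, length, expected count and FPKM. The deposited expected counts are estimated counts, not scaled to depth. The deposited FPKM values were scaled by the authors for length and library size. Aligner, counter, annotation and build: not given in the sources used here. Genes missing from a table were taken as 0.

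The members and the tests were chosen with earlier results of these data known. SD is the sample SD. The CV from counting is the square root of the mean of 1/count over 12 libraries. Sums of squares were taken on log2 scaled FPKM. Expected counts were rounded and tested with edgeR 4.0.16 (filterByExpr, TMM, quasi-likelihood, limma 3.58.1, R 4.3.3), 6 group means fitted to 12 libraries with 6 residual degrees of freedom, and Benjamini-Hochberg adjustment over 21261 genes. Alternatives used DESeq2 1.42.0 and limma with a trend on genes with an FPKM of at least 1 in at least 2 libraries, with pseudocounts of 1 and 0.1. The fits and the choice were tested on simulated data. The changes planted for the fits were larger than those of any member, so that test does not cover changes as small as the members'. Named genes were those of lowest CV (5), those on either side of the limit (2 each), and the extremes of level, length, range and organ mean.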

Additional observations from a re-analysis of the deposited data

Results flagged for a closer look

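For 3 of the named members the order of the rootstocks was opposite in 2 organs in every library. Cs9g05380 was lower in Cj than in Pt roots (log2 ratio of means -0.37) and higher on Cj in stem (0.13) and leaf (0.25), so that the root ratio differed from the stem ratio by -0.50 and from the leaf ratio by -0.62. Cs7g27500 was higher in Cj roots (0.21) and lower on Cj in stem (-0.09), a difference of 0.30. Cs7g27600 was lower in Cj roots (-0.20) and higher on Cj in stem (0.11), a difference of -0.32. With 2 libraries a group these differences were not tested, and the root values compare 2 species while the stem and leaf values compare 1 scion.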

How the results depend on the processing

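Of the 100 genes, 1 was kept with no scaling, 31 with TPM, 36 with the upper quartile, 30 with an FPKM minimum of 5 in every library (which also changes the genes behind the divisor), 29 with a mean minimum of 50 (29 remained eligible) and 41 with the median absolute deviation, and 76 to 94 without 1 library. The members' median CV was 16.3% with no scaling, 12.4% with TPM and 8.90% to 9.51% without 1 library, against 9.23%. Choosing on roots under TPM gave a left-out CV of 17.1%, and the share of variation between organs was 63.8% under TPM; both TPM values were added after seeing the data.

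Members called in stem against root were 23, and 36 with RLE scaling, 100 with limma on log2(FPKM + 1) and 100 with limma on log2(FPKM + 0.1). Calls among all genes were 17996, 17962, 18244 and 18173 in the same order. In leaf against root the members called were 20, and 89 with limma with either pseudocount. Calls among all genes were 18167, and 18204 and 18199 with limma. In leaf against stem the members called were 17, and 26 with limma with either pseudocount and 10 without the low-count filter. Calls among all genes were 11633, and 11886 and 11211 with limma and 11676 without the filter. Cj against Pt in stem gave 0 members, and 1 with RLE scaling and 1 with DESeq2. Calls among all genes were 941, 959 and 1078. Without 1 library the counts were 14 to 20 in stem against root, 12 to 16 in leaf against root, 7 to 13 in leaf against stem, 4 to 7 between rootstocks in roots and 0 in stem and leaf. Calls among all genes in stem (941) fell to 593 and 174 with limma at a pseudocount of 1 and 0.1. With 1 library left in a group, the calls moved both ways. They fell without Cj stem replicate 1, Pt stem replicate 1 or Pt stem replicate 2, and rose without Cj stem replicate 2. In leaf (1766) they were 1158 with limma at 0.1, and 938, 938 and 863 without Cj leaf replicate 2, Pt leaf replicate 1 and Pt leaf replicate 2. The causes were not tested beyond the fewer libraries or other scaling that define these settings.

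Same-numbered libraries showed little shared deviation (correlations of -0.06 to 0.13 over 15 pairs of groups). Noise in single genes lowers such correlations, and the labels do not say whether same-numbered libraries share a tree. Whether the numbers pair the libraries was thus not decided. With a replicate block the members called were 22, 18, 16, 12, 0 and 0 in the 6 comparisons, close to the counts without it. Calls among all genes with the block were 17976, 18115, 11545, 10904, 983 and 1801.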
